A study of Rattus norvegicus with 91 samples.

Results

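The 5 enzymes of the urea cycle, carbamoyl phosphate synthetase 1 (Cps1), ornithine transcarbamylase (Otc), argininosuccinate synthetase (Ass1), argininosuccinate lyase (Asl) and arginase 1 (Arg1), were followed in rat liver after methylprednisolone, a synthetic glucocorticoid. Their probe sets were taken by annotation, as those with a single gene symbol that is 1 of the 5, out of 10621 gene symbols named by a probe set of their own. There were 9 such probe sets of 8799 on the array design called the short course here and 7 of 15923 on the design called the long course, and 8 and 7 passed a filter on low signal. The 1 left out, Cps1 Z27513exon_i_at, had signals of 0.776 to 34.61 over the 47 arrays of the short course. All arrays carried total RNA of the liver of Wistar rats, and all labels, those of the controls included, name a 50 mg/kg dose of methylprednisolone. Besides 4 control arrays labelled time 0, the short course samples 16 times (0.25, 0.5, 0.75, 1, 2, 4, 5, 5.5, 6, 7, 8, 12, 18, 30, 48 and 72 h), in 2 arrays at 2, 5, 12, 30 and 72 h and in 3 otherwise. The long course samples 10 times (6, 10, 13, 18, 24, 36, 48, 72, 96 and 168 h), all in 4 arrays, and likewise has 4 controls. Neither route, dosing schedule, vehicle, time of day, sex nor age is in the labels. Because no label ties an array to an animal, p-values and errors measure the spread between arrays, and that spread may be technical. The courses were scaled apart, so no signal is compared between them, and no level is compared between probe sets.

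The urea cycle turns ammonia, which is toxic, into urea, and it runs in full in hepatocytes, most of all in those around the portal vein. Cps1 and Otc lie in the mitochondrion and make carbamoyl phosphate and then citrulline. In the cytosol Ass1 joins citrulline to aspartate, Asl splits the product into arginine and fumarate, and Arg1 splits arginine into urea and ornithine, which returns to the mitochondrion. Glucocorticoids and glucagon are known to raise the messenger RNAs of several, though not all, of these enzymes in rat liver.

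Arg1 in the long course was above the controls at all 10 times, by a factor of 1.94 at 6 h and 3.64 at 36 h. Ass1 was higher at 7 of 10 times, Cps1 at 5 of 10 times by 1 of its 2 probe sets, and Otc at 36 and 48 h. Many of these single-time calls of Ass1, Cps1 and Otc ended without control replicate 2, as did those of Arg1 at 6, 13 and 24 h. Asl passed the threshold against the controls at no time, but its signal at 72-168 h was lower than at 6-18 h, by factors of 2.20 (1368916_at) and 2.07 (1367754_s_at, whose accession belongs to Hnrnpab in RefSeq). During the short course Ass1 rose at 4-8 h, Otc fell at 4-8 h and Arg1 fell at 1-2 h. These were 3 of 8 probe sets at 4-8 h and 1 of 8 at 1-2 h, near the 27.0% and 12.2% of all probe sets that passed there, and each of these calls ended with at least 1 of the 4 controls left out. The later arrays of the short course had more Otc, less Asl and less Ass1 than those at 4-8 h. A test over all times at once passed for 6 of 7 probe sets in the long course, against 23.8% of all probe sets tested, and for 7 of 8 in the short course, against 33.6%. The exceptions were Cps1 1384334_at (adjusted p = 0.372) and Cps1 M12335expandedCDS_s_at (adjusted p = 0.143). The long-course pass of the other Cps1 probe set, 1370151_at (adjusted p = 0.034), ended without control replicate 2 (adjusted p = 0.124). It also ended without 36 h replicate 2 or 3, without 48 h replicate 4 and without the filter on low signal (adjusted p = 0.0591). Changes are differences of log2(signal + 32) from limma ± standard error, factors are on the same scale, and a result passes with an adjusted p under 0.05.

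Promoter sequences of RefSeq were available for Cps1, Otc, Ass1 and Asl, from 250 bases before to 50 after the start, and none was used for Arg1. They are shown for reference, and whether their letters bear on the changes of the enzymes was not tested. Positions are on the GRCr8 build: the Cps1 window is chr9:76063613-76063912 on the plus strand, Otc chrX:15202424-15202723 on the minus strand, Ass1 chr3:35149480-35149779 on the plus strand and Asl chr12:32295658-32295957 on the plus strand. Capitals mark every match to a short list of letters searched on both strands, which were the glucocorticoid receptor letters TGTTCT, the full palindromic glucocorticoid response element, the C/EBP letters TTGCGCAA and TTNNGNAA, CCAAT and TATAAA.
Cps1 promoter: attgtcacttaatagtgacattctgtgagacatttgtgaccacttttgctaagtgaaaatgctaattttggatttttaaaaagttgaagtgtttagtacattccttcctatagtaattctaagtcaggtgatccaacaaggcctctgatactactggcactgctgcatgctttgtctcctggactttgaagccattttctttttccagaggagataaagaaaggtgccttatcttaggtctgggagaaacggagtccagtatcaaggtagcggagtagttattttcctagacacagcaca
Otc promoter: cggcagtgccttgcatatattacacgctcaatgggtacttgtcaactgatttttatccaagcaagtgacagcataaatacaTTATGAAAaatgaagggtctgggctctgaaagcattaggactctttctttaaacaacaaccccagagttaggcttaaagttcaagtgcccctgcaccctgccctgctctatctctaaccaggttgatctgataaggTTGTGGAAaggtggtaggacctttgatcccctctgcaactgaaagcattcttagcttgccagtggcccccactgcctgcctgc
Ass1 promoter: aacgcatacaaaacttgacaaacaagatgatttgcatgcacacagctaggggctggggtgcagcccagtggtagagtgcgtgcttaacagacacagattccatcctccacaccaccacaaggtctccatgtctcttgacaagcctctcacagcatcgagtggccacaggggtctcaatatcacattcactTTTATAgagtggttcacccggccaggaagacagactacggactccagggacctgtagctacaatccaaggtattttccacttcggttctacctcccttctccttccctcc
Asl promoter: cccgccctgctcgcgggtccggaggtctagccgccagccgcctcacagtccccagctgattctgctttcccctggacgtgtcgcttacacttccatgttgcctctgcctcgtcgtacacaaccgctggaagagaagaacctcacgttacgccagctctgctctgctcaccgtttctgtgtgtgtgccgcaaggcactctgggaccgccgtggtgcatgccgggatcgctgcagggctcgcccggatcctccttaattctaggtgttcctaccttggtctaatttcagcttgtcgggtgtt
The Otc window held TTNNGNAA at -169 (TTATGAAA) and -33 (TTGTGGAA), and the Ass1 window held TATAAA on its minus strand at -60, read here as TTTATA. No listed letters were found in the Cps1 and Asl windows. Of 33469 such promoters 41.3% held TTNNGNAA, 14.2% TATAAA, 37.5% CCAAT, 20.7% TGTTCT, 0.17% TTGCGCAA and 0.0149% the palindrome, so the matches seen here are common letters. The windows were 39.3% (Cps1), 46.7% (Otc), 51.0% (Ass1) and 60.3% (Asl) G and C. The genes themselves span chr9:76063863-76186739 (Cps1), chrX:15126358-15202473 (Otc), chr3:35144765-35194632 (Ass1), chr12:32295779-32313257 (Asl) and chr1:22295093-22307720 (Arg1), and the starts used for Ass1 and Asl lie inside these spans.

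The long course holds 15 arrays with a high signal of the hybridisation spike-ins and 29 with a low one. Among the high arrays were all 11 arrays numbered replicate 4, and they made up 1 of 4 controls, 4 of 16 arrays at 6-18 h, 4 of 12 at 24-48 h and 6 of 12 at 72-168 h. Of the short-course arrays 9 had a mean correlation with the others under 0.9, among them control replicates 1 and 3. The 1 array of the short course on another scale, 6 h replicate 3, was rescaled. One label conflicts with itself, since a long-course array has 96 h (replicate 1) in its title and 72 in its description, and it was read as 96 h. Another, 48 h replicate 1 of the long course, carries the wording of the other course in its description and was kept by its title. Hepatocyte markers were present throughout: 5 of 6 were on each design, and their summed signal in the long course was 31090 to 91050 on treated arrays and 43950 to 81660 on controls. None of the 42 cell type markers of the long course or the 37 of the short course was at 0 on any array. This does not show that all were detected, since some fell below the filter on low signal. Examples in the long course were Cd8a and Krt7, with mean signals of 16.15 and 20.95.

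Windows were means over neighbouring times, and those of the long course were 6-18 h (16 arrays), 24-48 h (12 arrays) and 72-168 h (12 arrays). Of the 7 probe sets, 3 were higher than the controls at 6-18 h, 4 at 24-48 h and 3 at 72-168 h, and none was lower. Of all 11106 probe sets tested, 9.31%, 5.23% and 10.8% passed in these windows, and 4.64%, 2.61% and 4.81% passed upward. The median change of the 7 probe sets was 0.52, 0.70 and 0.63, against -0.03, -0.04 and -0.03 over all probe sets. Over single times, 24 of 70 comparisons of the 7 probe sets passed, against 5.39% of such comparisons over all probe sets. The shares of all probe sets called higher at 6, 10, 13, 18, 24, 36, 48, 72, 96 and 168 h were 2.80%, 4.07%, 2.75%, 2.52%, 0.747%, 2.40%, 2.26%, 2.81%, 3.56% and 3.39%. The plot of long-course signals shows every array.

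**Figure D1:**
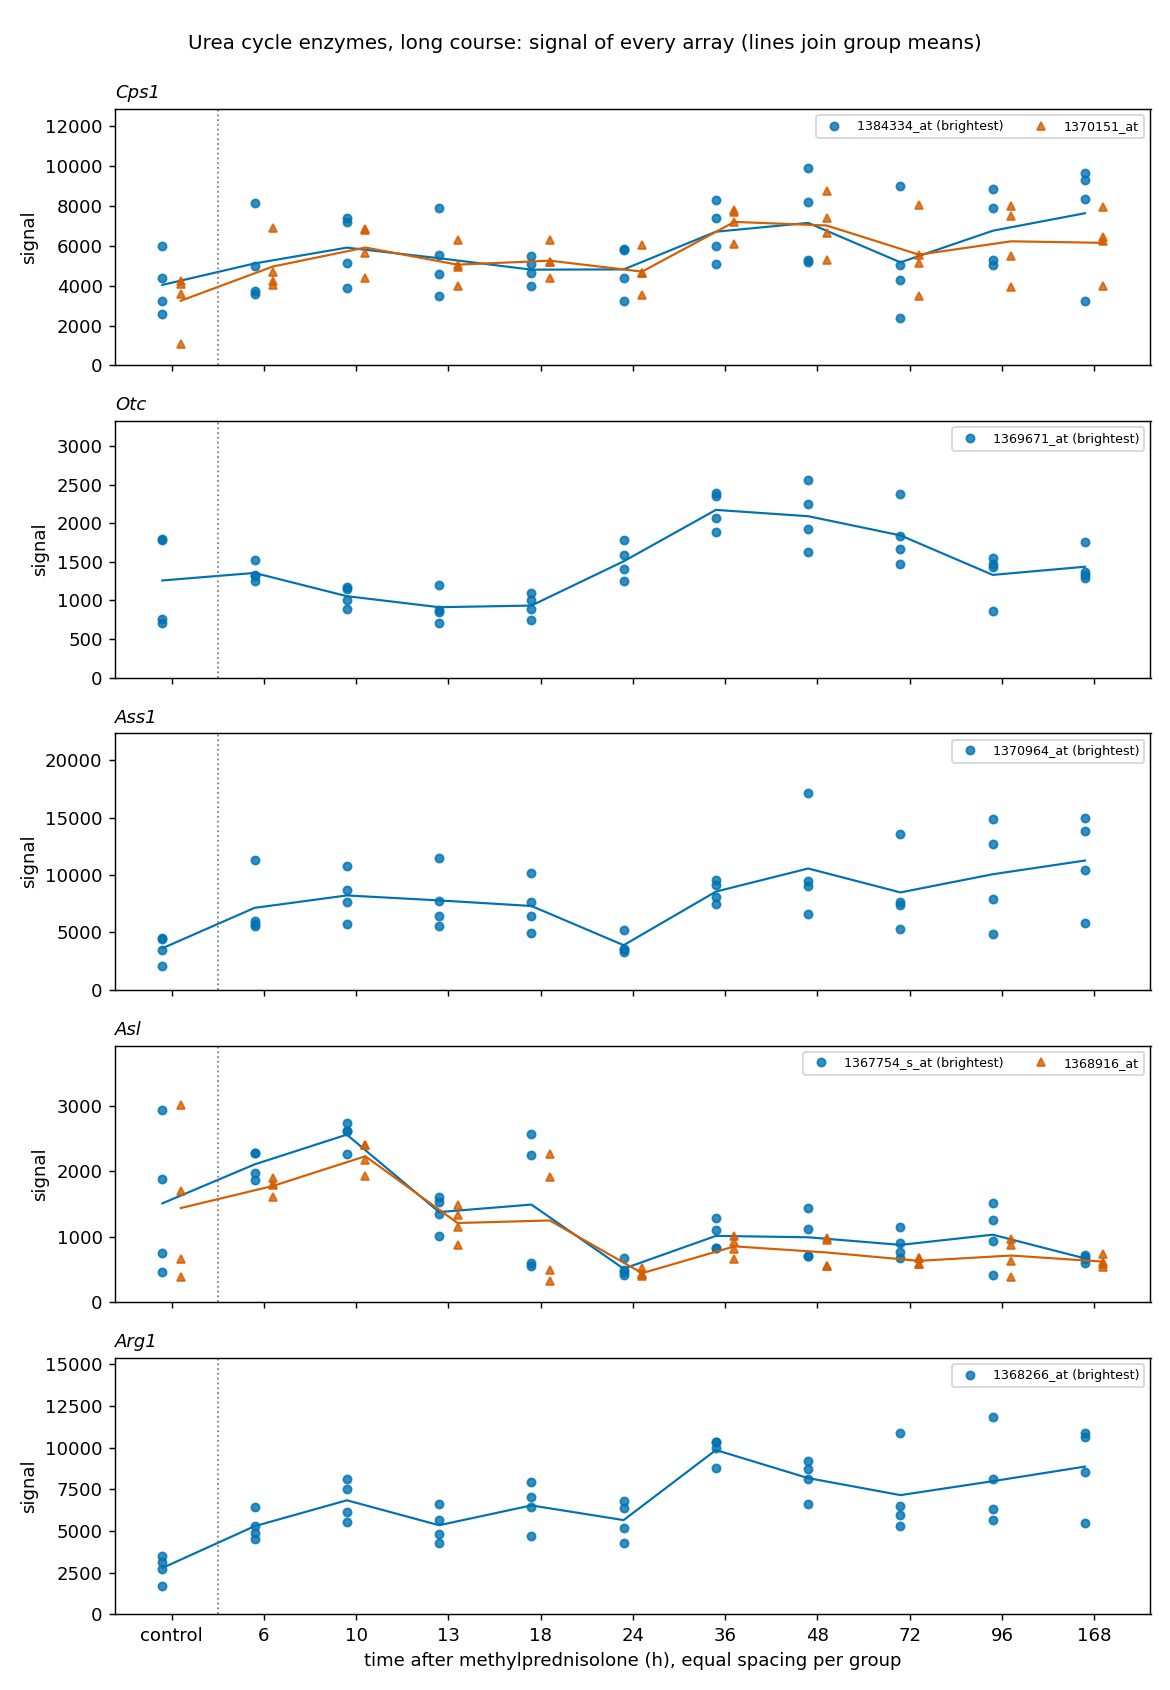
Signal of each array (linear axis, arbitrary intensity units) against time after methylprednisolone in h at equal spacing, controls at the left, for the 7 probe sets of the long course; lines join group means. All Arg1 arrays from 6 h on lie above the highest control, 3523, and the control and 18 h arrays of Asl each fall into a high and a low pair.

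Cps1 makes the carbamoyl phosphate that enters the cycle. Its brightest probe set, 1384334_at, had signals of 4358, 2580, 3234 and 5958 in the long-course controls and averaged 6695 ± 1430 and 7136 ± 2301 at 36 and 48 h (SD, 4 arrays each). These ranges overlapped the controls, and the window changes of 0.41 ± 0.27, 0.63 ± 0.28 and 0.63 ± 0.28 did not pass (adjusted p = 0.403, 0.215 and 0.147). No single time passed for it in limma, and 4 of 10 times had an unadjusted p under 0.05. At 168 h, 3 arrays stood at 9273, 8343 and 9632 and replicate 1 at 3235. Replicate 1 had a low spike-in signal and the other 3 a high one, and the part of this in the split was not tested.

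The other Cps1 probe set, 1370151_at, had 6094, 7774, 7705 and 7175 at 36 h, against 4240, 1078, 3584 and 4062 in the controls. All arrays at 36 h lay above all controls. It rose by 0.85 ± 0.23 at 6-18 h (adjusted p = 0.0134), by 1.08 ± 0.24 at 24-48 h (adjusted p = 0.0032) and by 1.00 ± 0.24 at 72-168 h (adjusted p = 0.00336), with every array of these windows above the control mean. Single times passed at 10, 36, 48, 96 and 168 h. Without control replicate 2, at 1078, the window changes were 0.39, 0.62 and 0.54 (adjusted p = 0.248, 0.103 and 0.116), and 10, 48, 96 and 168 h no longer passed (adjusted p = 0.181, 0.085, 0.158 and 0.171). On the low spike-in arrays alone the change at 72-168 h was 0.78 (adjusted p = 0.0957), and the test over all times did not pass (adjusted p = 0.116).

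Otc condenses carbamoyl phosphate with ornithine to citrulline, and its gene lies on the X chromosome. The long-course controls split, with 753.3 and 707.5 in replicates 1 and 2 and 1795 and 1777 in replicates 3 and 4. The 4 arrays at 36 h had 2396, 2348, 2061 and 1882, and those at 48 h had 1929, 2554, 1626 and 2251. All 36 h arrays lay above all controls, with a change of 0.90 ± 0.22 (adjusted p = 0.00977), while the 48 h arrays overlapped them, with 0.83 ± 0.22 (adjusted p = 0.0228). Neither time passed without control replicate 1 (0.70 and 0.64, adjusted p = 0.067 and 0.126) or 2 (0.67 and 0.61, adjusted p = 0.0855 and 0.166), and on the high spike-in arrays alone, with 1 control, the changes were 0.08 and 0.11.

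Earlier arrays of Otc lay lower, with means of 912.2 ± 207.7 at 13 h and 933.4 ± 152.4 at 18 h (SD, 4 arrays each). The window change was -0.13 ± 0.17 at 6-18 h (adjusted p = 0.729), 0.70 ± 0.18 at 24-48 h (adjusted p = 0.0128) and 0.38 ± 0.18 at 72-168 h (adjusted p = 0.196). At 24-48 h all 12 arrays were above the control mean. This call ended without control replicate 1, at 0.51 (adjusted p = 0.147), and without control replicate 2, at 0.48 (adjusted p = 0.183), the same 2 controls that were low.

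Ass1 brings in the second nitrogen of urea, from aspartate. Its signal was 4523, 2068, 3497 and 4399 in the long-course controls. The arrays at 10 h had 10750, 5737, 7696 and 8718, those at 24 h 3518, 5184, 3590 and 3274, and those at 168 h 5808, 14930, 10460 and 13870. At 24 h 3 of the 4 arrays lay within the range of the controls, and at each of the other 9 times all 4 arrays lay above the highest control. Over all probe sets, 9.66%, 13.3%, 10.3%, 8.47%, 5.65%, 9.51%, 7.20%, 8.88%, 8.92% and 8.65% had every array outside the control range at the 10 times in order. All Ass1 arrays of the windows 6-18 h and 72-168 h, and all Arg1 arrays of the 3 windows, lay above all controls, where 1.49%, 1.66% and 2.57% of all probe sets had every array of the 3 windows outside the control range.

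Changes of Ass1 passed at 10, 13, 36, 48, 72, 96 and 168 h, between 1.11 at 13 h (adjusted p = 0.0434) and 1.60 ± 0.33 at 168 h (adjusted p = 0.00124). At 24 h the change was 0.14 ± 0.33 (adjusted p = 0.927). Over the windows Ass1 rose by 1.07 ± 0.26 (adjusted p = 0.006), 0.98 ± 0.27 (adjusted p = 0.0223) and 1.40 ± 0.27 (adjusted p = 0.000337), factors of 2.11, 1.97 and 2.64. Without control replicate 2 the times 10, 13, 36 and 72 h no longer passed (adjusted p = 0.0799, 0.138, 0.0903 and 0.119), nor did the first 2 windows (0.83, adjusted p = 0.057, and 0.74, adjusted p = 0.194), and without control replicate 3 the 24-48 h window did not (adjusted p = 0.0565). On the low spike-in arrays alone the single times 96 and 168 h were at 0.94 and 0.85 (adjusted p = 0.096 and 0.307).

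Arg1 releases urea and is the last enzyme of the cycle. The long-course controls had 2744, 1685, 3146 and 3523. The 6 h arrays had 4854, 4515, 5300 and 6460, the 36 h arrays 8764, 10360, 9954 and 10340, and the 168 h arrays 5456, 8508, 10630 and 10850. The lowest of the 40 treated arrays, 4267 at 13 h, was above the highest control. Arg1 passed at all 10 times, with changes of 0.96 ± 0.24 at 6 h (adjusted p = 0.0106) to 1.86 ± 0.24 at 36 h (adjusted p = 1.41e-06). On the low spike-in arrays alone, where replicate 1 was the array left at 168 h, the change at 168 h was 1.15. With all arrays it was 1.66. Among all probe sets, 0.126% were called higher at every time.

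By window Arg1 rose by 1.13 ± 0.19, 1.50 ± 0.19 and 1.51 ± 0.19 (adjusted p = 9.52e-05, 1.51e-06 and 5.5e-07), factors of 2.18, 2.83 and 2.84. These windows passed with any 1 of the 44 arrays left out. The single times 6, 13 and 24 h did not pass without control replicate 2 (adjusted p = 0.0686, 0.0543 and 0.0714). At 72-168 h Arg1 was above 6-18 h by 0.38 ± 0.13 (adjusted p = 0.03, 9 of 12 arrays), a difference that was 0.17 with quantile normalization (adjusted p = 0.19), 0.28 with the spike-in batch as a block (adjusted p = 0.0601) and 0.04 on the low spike-in arrays alone (adjusted p = 0.913). It also ended without any 1 of 5 arrays, at 0.34 without 18 h replicate 3, 0.31 without 72 h replicate 4, 0.31 without 96 h replicate 4, 0.35 without 168 h replicate 3 and 0.34 without 168 h replicate 4.

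Markers of other cells moved in the same windows. Of 7 Kupffer cell and macrophage markers 4 were on the long-course design. Cd68 and Clec4f fell in all 3 windows, while Csf1r and Cd14 passed in none. The summed signal of the list was 660.6 to 1314 at 6-18 h, 762.2 to 1450 at 24-48 h and 652.6 to 1235 at 72-168 h, against 1352 to 1798 in the controls. In bulk liver RNA fewer cells of a type and less RNA per cell cannot be told apart. Of 5 periportal hepatocyte markers, Sds was higher in all 3 windows, Hal and Pck1 were lower at 6-18 h, and Cdh1 was lower at 6-18 h and 72-168 h. Among 4 tested pericentral markers Cyp1a2 was higher at 24-48 h and 72-168 h. Lyve1 (endothelial) was higher at 6-18 h. Col3a1 (stellate cell) was lower at 24-48 h and 72-168 h, and Epcam (bile duct) at 6-18 h and 72-168 h. No tested hepatocyte, neutrophil, erythroid or lymphocyte marker of the lists passed. The log2 ratio of the 3' to the 5' probe set of GAPDH, a sign of RNA quality, had a median of 0.152, 0.257 and 0.340 in the 3 windows and 0.0821 in the controls. Their part in the changes of the enzymes was not tested.

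**Figure D2:**
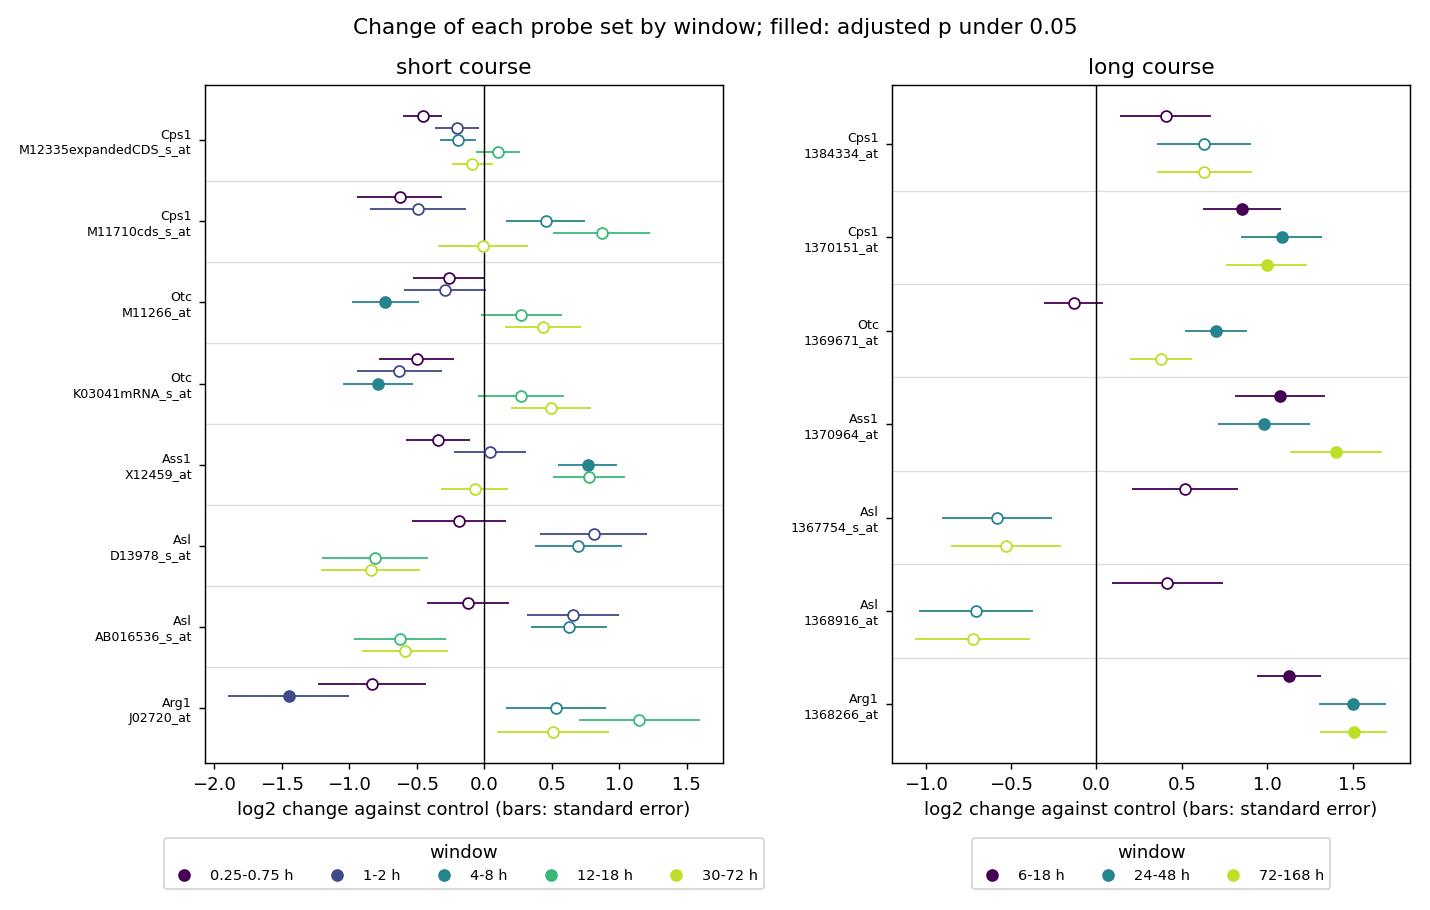
Log2 change (bars: standard error) of each tested probe set against the controls of its course, by window of time; filled circles have an adjusted p under 0.05. In the long course Arg1, Ass1 and Cps1 1370151_at lie right of 0 in all 3 windows, while Asl lies right of 0 at 6-18 h and left of it afterwards without passing.

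The short course adds times before 6 h. Of its 8 probe sets none passed in limma at 0.25-0.75 h, 12-18 h or 30-72 h, where 2, 4 and 1 had an unadjusted p under 0.05, 1 passed at 1-2 h and 3 at 4-8 h. Among all 6118 probe sets tested, 3.42%, 12.2%, 27.0%, 0.997% and 0.0981% passed in the 5 windows in order of time. The median change of the 8 probe sets was -0.40, -0.25, 0.49, 0.27 and -0.04, against 0.08, 0.06, 0.10, -0.09 and 0.03 over all probe sets. The 3 calls at 4-8 h, 1 upward and 2 downward, are close to the background share. Over single times 5 of 128 comparisons passed, against 6.09% of those over all probe sets. The spread of the 4 controls was wide for all 5 enzymes, as the plot of short-course signals shows.

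**Figure D3:**
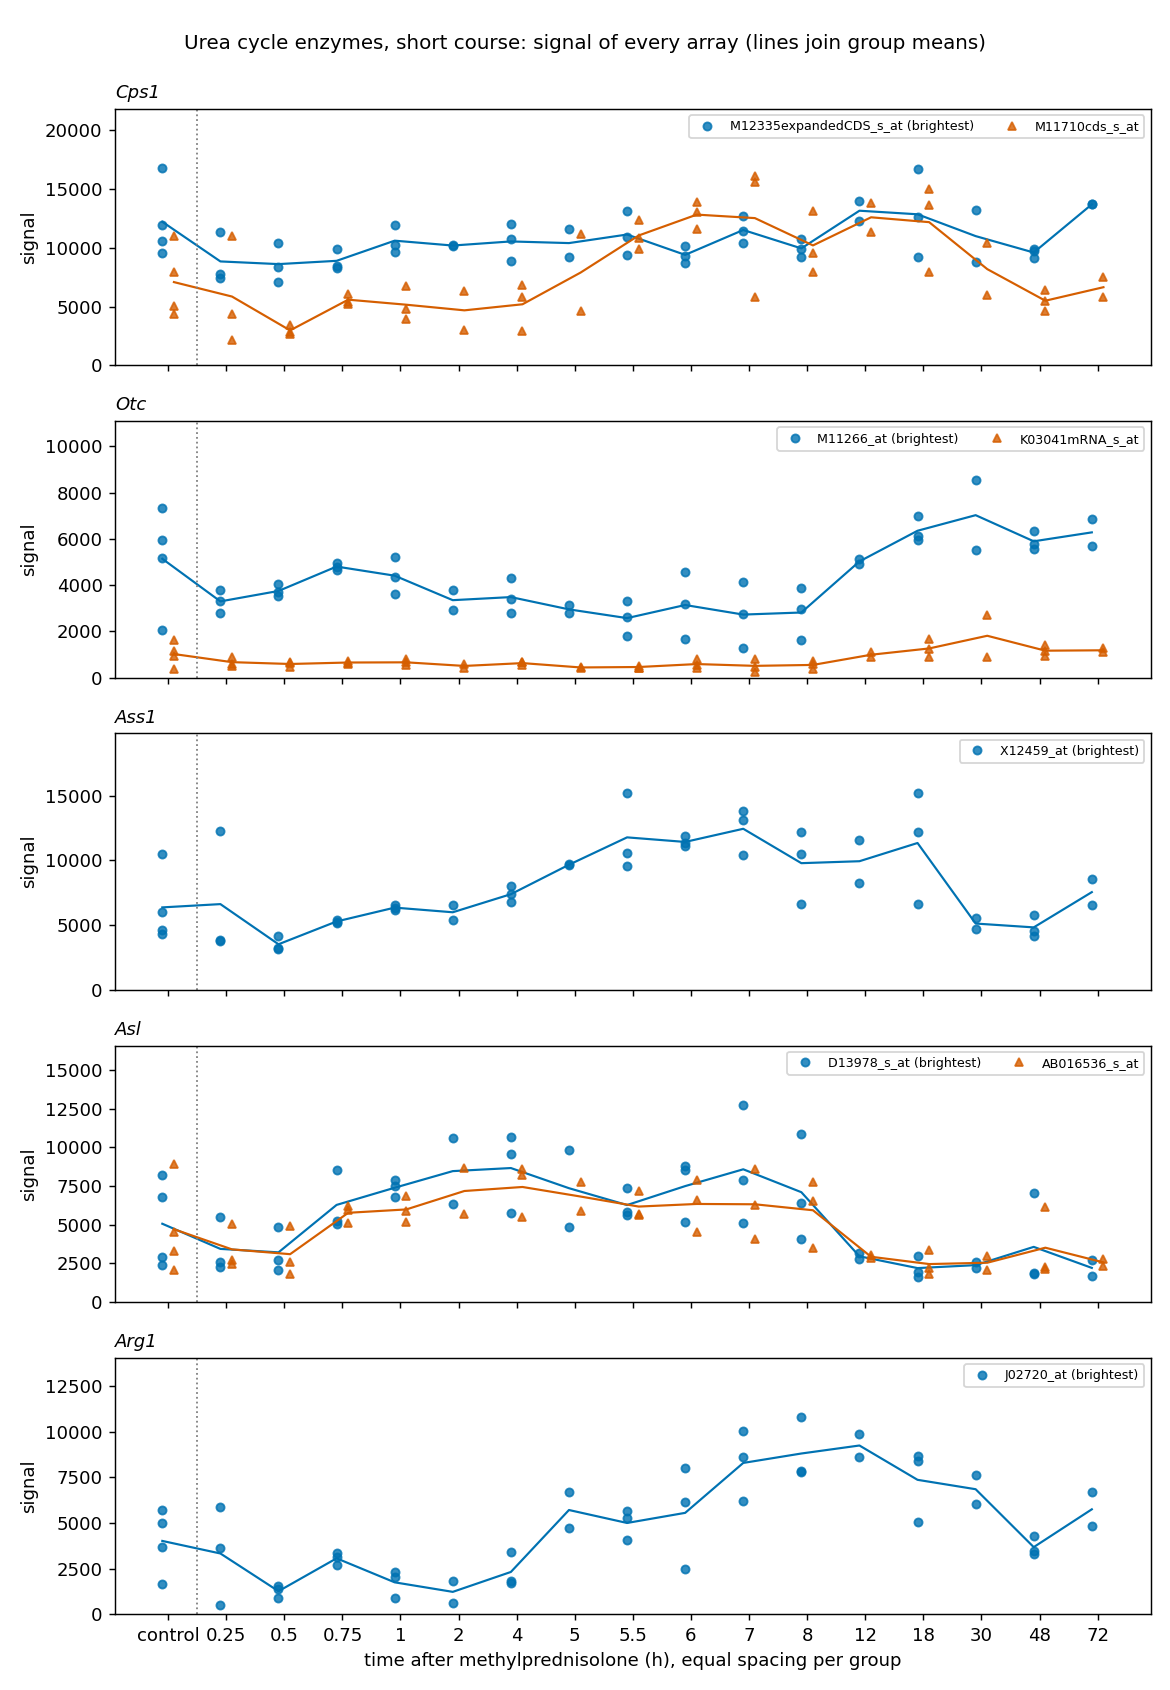
Signal of each array (linear axis, arbitrary intensity units) against time after methylprednisolone in h at equal spacing, controls at the left, for the 8 tested probe sets of the short course; lines join group means. Mean Arg1 was 1262 at 0.5 h, 1225 at 2 h and 9236 at 12 h, and mean Asl D13978_s_at was 6273 to 8666 from 0.75 to 8 h and 2196 to 3568 from 12 h on.

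Cps1 differed between its 2 short-course probe sets. M12335expandedCDS_s_at had 10390, 7078 and 8383 at 0.5 h, against 9572, 10550, 16770 and 11970 in the controls, and its window changes, -0.46 ± 0.15 at 0.25-0.75 h at most, did not pass (adjusted p = 0.0672). M11710cds_s_at had 2811, 3456 and 2681 at 0.5 h and 11580, 13010 and 13880 at 6 h, against 7950, 4388, 10990 and 5023 in the controls. Its arrays lay below all controls at 0.5 h and above all of them at 6 h, as had 20.6% and 19.9% of all probe sets on either side, but neither time passed (-1.15 ± 0.40, adjusted p = 0.0669, and 0.95 ± 0.40, adjusted p = 0.13). The group means of the pair correlated at 0.52 over the 17 groups, against 0.87 over 11 groups for the pair of the long course. Without the 9 arrays of low correlation M11710cds_s_at passed at 4-8 h (1.22, adjusted p = 0.0237).

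Otc fell at 4-8 h by both probe sets. M11266_at had a lowest, median and highest signal of 1281, 2955 and 4568 over the 17 arrays at 4-8 h, against 2080, 5573 and 7338 over the 4 controls. All 17 arrays lay below the control mean, but the ranges overlapped, since control replicate 2 was at 2080. The change was -0.73 ± 0.25 (adjusted p = 0.0258) for M11266_at and -0.79 ± 0.26 (adjusted p = 0.0225) for K03041mRNA_s_at. It did not pass without control replicate 1 (-0.52 and -0.51, adjusted p = 0.166 and 0.183), 3 (adjusted p = 0.128 and 0.112) or 4 (adjusted p = 0.0887 and 0.0659), and without the 9 arrays of low correlation it was -0.06 and -0.08 (adjusted p = 0.949 and 0.927).

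Ass1 rose at 4-8 h, with a lowest, median and highest signal of 6637, 10520 and 15230, against 4302, 5342 and 10510 in the controls. All 17 arrays were above the control mean, and control replicate 3, at 10510, overlapped them. The change was 0.76 ± 0.22, a factor of 1.70 (adjusted p = 0.00883). The times 5.5, 6 and 7 h passed on their own, with changes of 0.95, 0.93 and 1.05 (adjusted p = 0.0334, 0.0385 and 0.0262), where 8.63%, 7.40% and 4.69% of all probe sets were called higher. They did not pass after each array was centred on its median (adjusted p = 0.0865, 0.0839 and 0.0572). Without control replicate 4 the window change was 0.61 (adjusted p = 0.0766).

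Arg1 had 2328, 879.3 and 2031 at 1 h and 1828 and 621.7 at 2 h, against 5686, 1673, 5007 and 3686 in the controls. The 5 arrays at 1-2 h lay below the control mean, and 3 of them lay above control replicate 2. Arg1 fell by 1.45 on the log2 scale at 1-2 h (SE 0.45, adjusted p = 0.0307), and at 0.5 and 2 h alone (-1.55, adjusted p = 0.0496, and -1.74, adjusted p = 0.0379), where 2.86% and 6.18% of all probe sets were called lower. The fall at 1-2 h did not pass without control replicate 1, 3 or 4 (adjusted p = 0.101, 0.104 and 0.0707), without 1 h replicate 2 (adjusted p = 0.0933), without 2 h replicate 2 (-1.07, adjusted p = 0.157) or without the arrays of low correlation (adjusted p = 0.311). The call at 0.5 h ended in 34 of 47 fits with 1 array left out. All Arg1 arrays at 7, 8 and 12 h lay above all controls, with 8618, 10050 and 6178, then 7821, 7772 and 10800, then 8606 and 9866. The changes of 1.15, 1.25 and 1.33 at these times did not pass (adjusted p = 0.158, 0.0935 and 0.307), and 14.5%, 21.2% and 21.1% of all probe sets had every array outside the control range there.

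Asl D13978_s_at had a lowest, median and highest signal of 4072, 7398 and 12760 at 4-8 h, with 16 of 17 arrays above the control mean. Its controls were 2884 and 2369 in replicates 1 and 4 and 8186 and 6818 in replicates 2 and 3, so the ranges overlapped. The change of 0.70 ± 0.32 did not pass (adjusted p = 0.107), nor did that of AB016536_s_at, 0.63 ± 0.28 (adjusted p = 0.0967). Without control replicate 2 both passed, at 0.99 (adjusted p = 0.0327) and 1.00 (adjusted p = 0.0093).

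Markers of other cells moved in the short course too. S100a8 and S100a9, calcium-binding proteins of neutrophils, were higher from 0.25 to 8 h, and their summed signal at 4-8 h was 499.3 to 4575, against 105.7 to 606 in the controls. Cd14, a receptor for bacterial lipopolysaccharide on macrophages, was higher in the same windows, while Clec4f, the other of the 2 tested Kupffer cell markers, was lower at 4-8 h. The summed Kupffer cell list at 4-8 h, most of it Cd14, was 4733 to 15010, against 3486 to 3991 in the controls. Of 4 tested endothelial markers, Lyve1 was higher from 0.25 to 8 h, and at 4-8 h Pecam1 was higher and Kdr lower, with a summed signal of 1844 to 3368, against 1109 to 1333 in the controls. Among stellate cell and bile duct markers at 4-8 h, Acta2 was higher and Epcam lower. The hepatocyte list at 4-8 h was 41080 to 88840, against 29280 to 152900, and of its 5 markers only Apoa1 passed, downward. Of the zone markers at 4-8 h, Hal and Gls2 (periportal) and Cyp2e1 and Oat (pericentral) were lower and Glul (pericentral) was higher. The 3' to 5' log2 ratio of GAPDH had a median of -0.129 at 0.25-0.75 h, -0.00727 at 1-2 h and -0.0227 at 4-8 h, against 0.182 in the controls. Their part in the changes of the enzymes was not tested.

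Late arrays were then set against early ones, without the controls. Of the 8 short-course probe sets 5 differed between 30-72 h and 4-8 h, where 36.7% of all probe sets did. Of the 7 long-course probe sets 4 differed between 72-168 h and 6-18 h, against 21.2%. Otc at 30-72 h had a lowest, median and highest signal of 5521, 5797 and 8531, against 1281, 2955 and 4568 at 4-8 h. Otc was higher at 30-72 h by 1.17 ± 0.20 (adjusted p = 2.71e-05) for M11266_at and by 1.28 ± 0.21 (adjusted p = 1.53e-05) for K03041mRNA_s_at. The hepatic Otc signal of the long course was 864.7, 1474 and 2381 at 72-168 h, against 713.4, 1052 and 1525 at 6-18 h, a difference of 0.51 ± 0.12 (adjusted p = 0.00158, 11 of 12 arrays).

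Asl went the other way in both courses. At 30-72 h D13978_s_at had 1717, 2186 and 7021, against 4072, 7398 and 12760 at 4-8 h, with 48 h replicate 1, at 7021, the 1 late array inside the early range. It was lower at 30-72 h by a factor of 2.91 (-1.54 ± 0.26, adjusted p = 2.42e-05), and AB016536_s_at was lower by a factor of 2.32 (-1.21 ± 0.23, adjusted p = 9.1e-05). Likewise long-course 1367754_s_at had 421, 747.5 and 1513 at 72-168 h, against 552.1, 2112 and 2746 at 6-18 h (-1.05 ± 0.21, adjusted p = 0.000341). For 1368916_at the difference was -1.14 ± 0.22 (adjusted p = 0.000195). All 12 late arrays lay below the early mean for both probe sets, though the ranges overlapped.

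The late-against-early differences of Otc and Asl passed under all 10 other settings of the short course and with any 1 of its 47 arrays left out. Those of the long course passed with any 1 of 44 arrays left out and under 12 of 13 other settings, the exception being the 15 high spike-in arrays alone. Ass1 was lower at 30-72 h than at 4-8 h in the short course, with a difference of -0.84 ± 0.18 (adjusted p = 0.000383, 7 of 7 arrays), whereas its long-course difference was 0.33 ± 0.18 (adjusted p = 0.204). The windows of the courses cover different times, and the courses were not tested against each other. Cps1 did not pass in either course (0.11 and -0.47 in the short course, 0.23 and 0.14 in the long course).

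**Figure D4:**
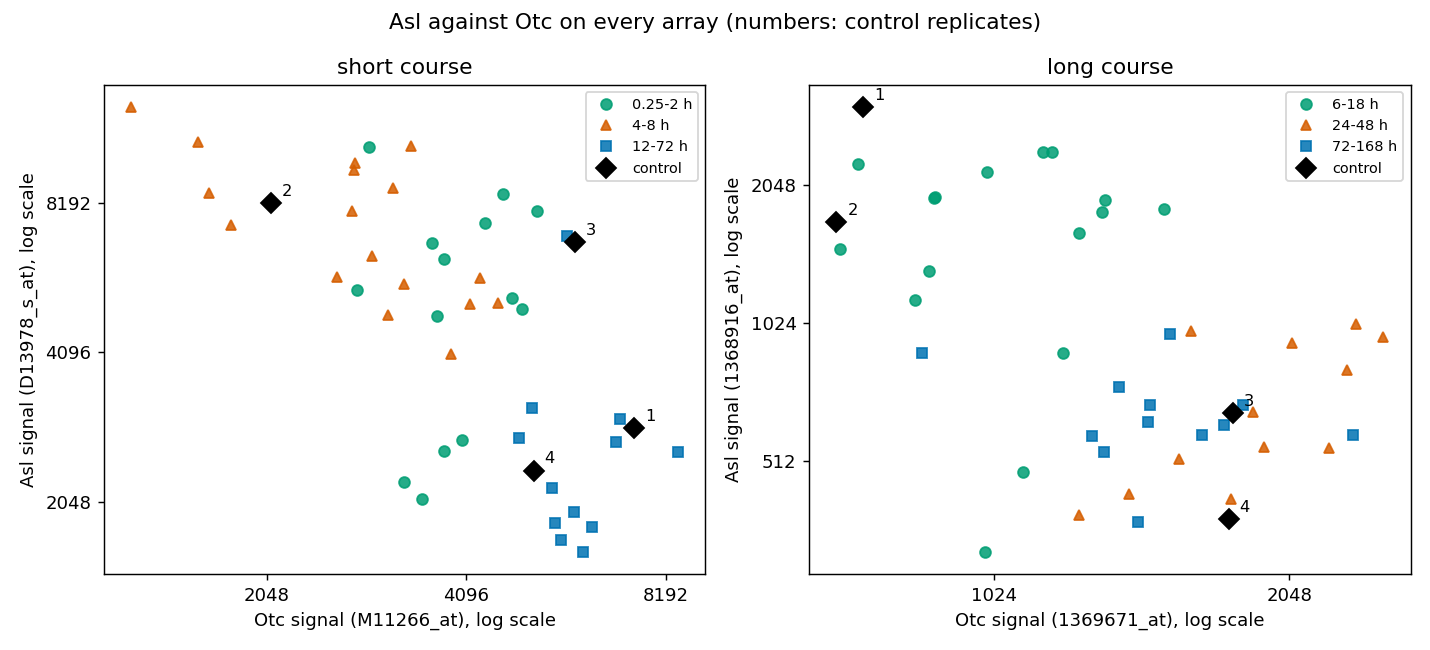
Asl signal against Otc signal on every array, both axes on a log scale in intensity units, with windows marked by shape and the control replicates numbered; the long-course panel shows Asl 1368916_at. There, control replicates 1 and 2 have Asl at 3018 and 1699 with Otc at 753.3 and 707.5, and replicates 3 and 4 have Asl at 652.1 and 382.2 with Otc at 1795 and 1777.

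The controls differed among themselves in both enzymes. Long-course Asl 1367754_s_at was 2944 and 1879 in control replicates 1 and 2, where Otc was 753.3 and 707.5, and 752.7 and 461 in replicates 3 and 4, where Otc was 1795 and 1777. The other Asl probe set, 1368916_at, had 3018, 1699, 652.1 and 382.2 in the same 4 controls. The 18 h arrays also split, with Asl at 2575 and 2245 in replicates 1 and 2 and 591.9 and 552.1 in replicates 3 and 4, and Otc at 743.4 and 889.9 in the first pair and 1097 and 1003 in the second. Short-course control replicate 2 had the highest Asl, 8186, and the lowest Otc, 2080, of the 4 controls. At 24 h all 4 long-course arrays had low Asl, with 483.9, 417.5, 672.5 and 465.4, but with these controls the change of -1.19 ± 0.40 did not pass (adjusted p = 0.134), and without control replicate 4 it did (-1.62, adjusted p = 0.0188). On the low spike-in arrays alone Asl was lower than the controls at 72-168 h, by both probe sets (-1.24, adjusted p = 0.0395, and -1.42, adjusted p = 0.0187). That subset leaves out control replicate 4, the control with the lowest Asl. Leaving out that control alone also gave a pass in limma for 1368916_at at 72-168 h (-1.20, adjusted p = 0.0163). No single time passed for either Asl probe set of the long course in limma, and 4 and 2 of 10 times had an unadjusted p under 0.05.

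Over the 17 groups of the short course the means of Otc and Asl correlated at -0.77, and over the 11 groups of the long course at -0.44. Arg1 and Ass1 correlated at 0.67 and 0.83, and Arg1 and Cps1 1370151_at of the long course at 0.97. These are descriptions of group means that share arrays and controls. Both Asl probe sets of the long course followed each other (0.98), although the accession of 1367754_s_at belongs to Hnrnpab in RefSeq while the array annotation names Asl. The Asl pair of the short course correlated at 0.99 and the Otc pair at 0.94.

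By the same measure other genes were ranked for their likeness to each enzyme, over 17 group means (short course) or 11 (long course). Short-course Arg1 was most like Uox (urate oxidase, 0.97), Dlat (0.93) and Ahcy (S-adenosylhomocysteine hydrolase, 0.90), and Ass1 was most like Cbs (cystathionine beta-synthase, 0.95), Rdh16 (0.89) and Idh3g (0.88). Asl came closest to Got1 (cytosolic aspartate aminotransferase, 0.96), Jag2 (0.90) and Oxnad1 (0.88). Otc was nearest to Acsl1 (0.95), Cat (catalase, 0.95) and Mapk9 (0.94), and Cps1 to Gnas (0.91), Hsd11b1 (0.91) and C3 (0.91). Long-course Arg1 was most like Cps1 1370151_at, then Atp6v0e1 (0.94) and Tdo2 (tryptophan dioxygenase, 0.93), and Ass1 was most like Gnmt (glycine N-methyltransferase, 0.95), Ahcy (0.90) and Slc41a3 (0.90). Asl came closest to Atic (0.93), Id1 (0.93) and Nceh1 (0.92), Otc to Thnsl2 (0.97), Ndrg2 (0.96) and Hibadh (0.94), and Cps1 to Tead1 (0.96), Plekhf1 (0.94) and Sardh (0.91). Ahcy was thus the 1 gene on the lists of both courses, next to short-course Arg1 and long-course Ass1. The Cps1 lists rest on M12335expandedCDS_s_at and 1384334_at, which did not pass the test over all times. That of long-course Asl rests on 1367754_s_at, the probe set with the Hnrnpab accession. All these genes were picked as the highest correlations among the tested probe sets, and the likeness was not tested.

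The enzymes were read beside 37 other genes of ammonia, glutamine, proline and arginine handling, their carriers and regulators, of which 30 were tested in the long course. Of these, 7 rose and 1 fell at 6-18 h, 7 rose and 1 fell at 24-48 h, and 10 rose and 2 fell at 72-168 h, where 9.31%, 5.23% and 10.8% of all probe sets passed. Their median changes were 0.08, 0.27 and 0.17, against -0.03, -0.04 and -0.03 over all probe sets. Gpt, the cytosolic alanine aminotransferase, had the largest change of the list: 769 to 2386 at 72-168 h, against 49.72 to 139.1 in the controls. It rose by 1.74, 3.47 and 3.67 ± 0.28 in the 3 windows (adjusted p = 3.44e-05, 2.91e-11 and 2.41e-12).

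Prodh, proline dehydrogenase, rose at 24-48 h (2.00, adjusted p = 3.68e-05) and 72-168 h (2.40, adjusted p = 6.08e-07). Got1, which makes aspartate, the second nitrogen donor of the cycle, rose at 6-18 h by 2.19 ± 0.45 (adjusted p = 0.0012) and at 72-168 h by 1.64 (adjusted p = 0.0161), the later of these calls ending without control replicate 2, 3 or 4 (1.49, 1.40 and 1.48, adjusted p = 0.0701, 0.0938 and 0.0603). Slc25a15, the ornithine carrier of the mitochondrion, rose at 6-18 h by 1.23 ± 0.19 (838.1 to 5170, against 808.7 to 999.2, adjusted p = 3.79e-05) and was lower at 72-168 h than at 6-18 h (-0.77, adjusted p = 3.33e-05). Odc1, ornithine decarboxylase, rose at 6-18 h (1.69, adjusted p = 2.09e-05) and 72-168 h (1.11, adjusted p = 0.00317), and Slc38a2, a neutral amino acid carrier, rose at the same times (1.29 and 0.99, adjusted p = 0.00142 and 0.0143). The later call of Slc38a2 ended without control replicate 1, 3 or 4 (0.96, 0.91 and 0.78, adjusted p = 0.0504, 0.066 and 0.0948), and on the low spike-in arrays alone the 72-168 h calls of Got1, Odc1 and Slc38a2 ended (adjusted p = 0.33, 0.0532 and 0.0733).

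**Figure D5:**
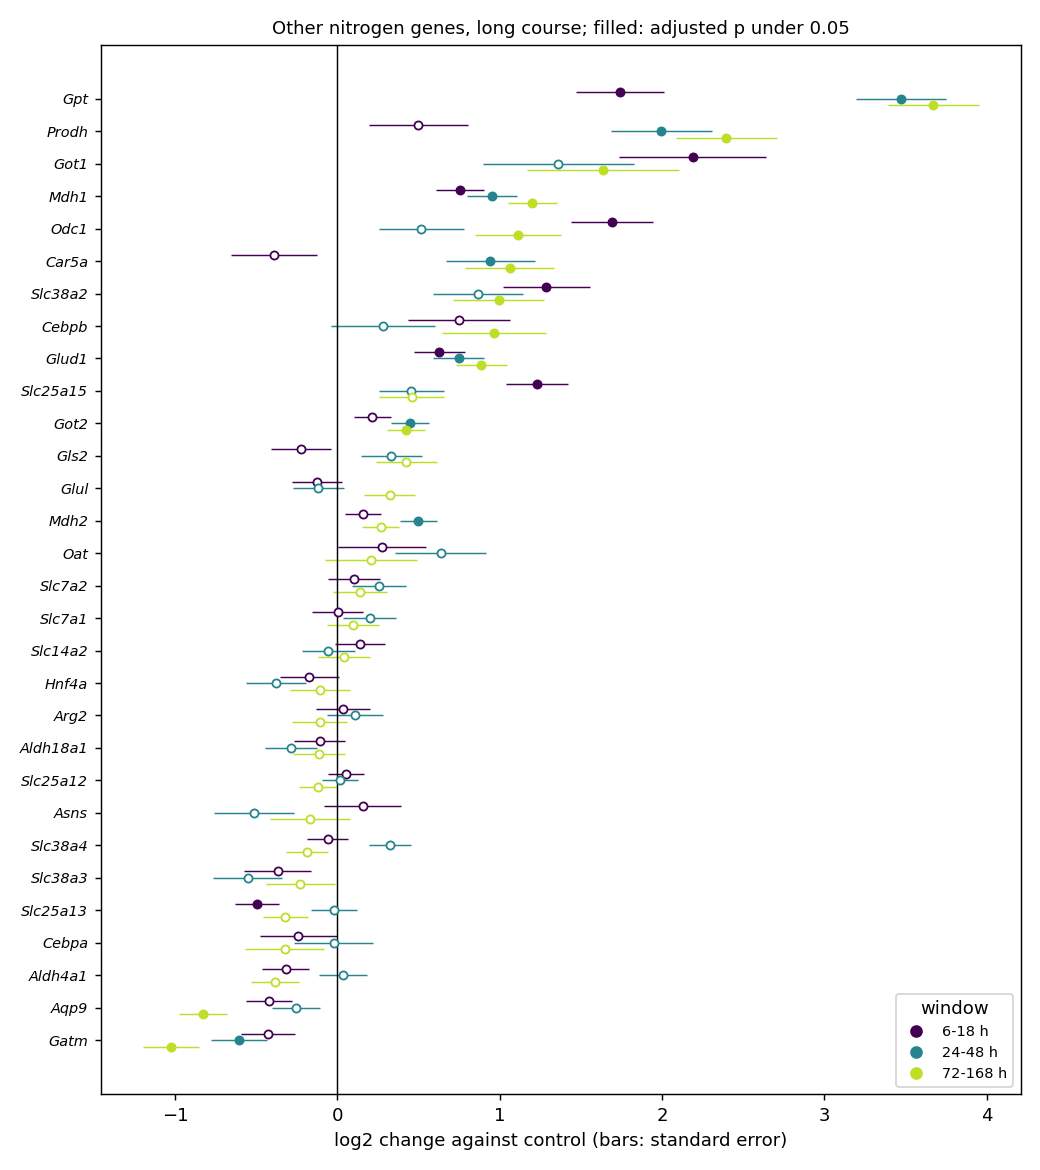
Log2 change (bars: standard error) of the 30 tested genes of the related list in the long course against its controls, by window of time; filled circles have an adjusted p under 0.05. Gpt and Prodh lie farthest right at 72-168 h, at 3.67 and 2.40, and Gatm farthest left, at -1.03.

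The short course tested 21 of the 37. None rose and 1 fell at 0.25-0.75 h, 5 rose at 1-2 h, and 5 rose and 3 fell at 4-8 h, where 3.42%, 12.2% and 27.0% of all probe sets passed. Their median changes were -0.08, -0.03 and -0.08, against 0.08, 0.06 and 0.10 over all probe sets. None passed in limma at 12-18 h or 30-72 h, where 4 and 1 had an unadjusted p under 0.05. Odc1 was 2729 to 6412 at 4-8 h, against 812.5 to 1601 in the controls, with no overlap and a change of 1.88 ± 0.23 (adjusted p = 6.7e-07). Of all probe sets 5.17% had every array at 4-8 h outside the control range. Got1 rose at 4-8 h by 1.71 ± 0.34 (adjusted p = 0.000418) and was lower at 30-72 h than at 4-8 h by a log2 difference of -2.35 (adjusted p = 8.46e-08), and Cebpb, a transcription factor of the C/EBP family, rose at 1-2 h by 1.64 ± 0.29 (adjusted p = 0.000563). Aqp9, a liver channel for glycerol and urea, was 727.5 to 3611 at 4-8 h, against 5060 to 5864 (-1.37 ± 0.31, adjusted p = 0.00137), a call that ended without the 9 arrays of low correlation (-0.91, adjusted p = 0.0705).

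The cationic amino acid carriers Slc7a1 and Slc7a2 rose at 1-2 h, by 2.20 ± 0.70 (adjusted p = 0.035) and 1.08 ± 0.29 (adjusted p = 0.0136). Slc7a1 was dim and uneven, at 24.33 to 490.2 on the 5 arrays, against 15.07 to 24.08 in the controls. Its call ended without any 1 of control replicates 1, 3 or 4 (adjusted p = 0.0613, 0.0776 and 0.082), 1 h replicate 2 or either 2 h array (adjusted p = 0.118, 0.0856 and 0.0836). That of Slc7a2 at 1-2 h ended without control replicate 4 or 2 h replicate 1 (adjusted p = 0.0545 and 0.08). In the long course neither carrier passed in any window, at 0.00, 0.20 and 0.10 for Slc7a1 and 0.10, 0.26 and 0.14 for Slc7a2.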

How the data were processed

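The values are intensity on a linear scale, 1 per probe set, as deposited for 2 Affymetrix designs. The software of the scanner and how probes were summarised is not given in the sources used here. Short-course arrays shared a trimmed mean near 801, except 6 h replicate 3 at 150.2, which was multiplied to it, and long-course arrays one near 150.1. Of 1081 and 946 pairs of arrays 0 were identical.

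Signals were used as log2(signal + 32). After removal of 59 and 57 control probe sets, those with a mean signal under the 30th percentile (91.2 and 35.7) were dropped, which kept 6118 and 11106. A model of group means was run in limma (version 3.58.1, R 4.3.3) on all arrays of each course, with a variance trend, and Benjamini-Hochberg adjustment covered all probe sets tested in a comparison. Windows are unweighted means of their times. The code was tested on simulated data. A probe set was named if it had 1 symbol, true of 7006 and 12783. Each gene is led by its brightest probe set. Of the related list up to 6 genes a course with the largest window change that passed are named, and the 3 genes most like each enzyme. Members, lists and windows were chosen with earlier results of these data known. Alternatives were quantile normalization, median centring, added constants of 16 and 64, other filters, array weights, a fit without the trend, blocks, subsets of arrays and each array left out. Replicate numbers were not taken to pair arrays across times. Deviations of same-numbered arrays correlated at a median of -0.01 (short course) and 0.06 (long course), against 0.001 and -0.02 for different numbers. Of the same-number correlations 26.0% and 34.1% were over 0.1. All 11 long-course arrays numbered replicate 4 had high spike-ins, so that number did mark a group of arrays.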

Additional observations from a re-analysis of the deposited data

Results flagged for a closer look

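Of 85 groups of 4 arrays, 4 held 1 array far from the other 3, where chance gives about 1 in 20. For Cps1 1384334_at this was 168 h replicate 1 at 3235, beside 9273, 8343 and 9632. For Cps1 1370151_at it was control replicate 2 at 1078, beside 4240, 3584 and 4062. Otc at 96 h had 864.7 in replicate 3, beside 1472, 1436 and 1549, and Ass1 at 6 h had 11330 in replicate 4, beside 5991, 5534 and 5725. The spike-in signal was low on the 168 h array and high on the other 3, and high on the 6 h array and low on the other 3. Control replicate 2 was low, as were control replicates 1 and 3. The 96 h array was high, as was 96 h replicate 4, and its mean correlation with the other arrays was 0.887. Their part in the outlying values was not tested. Groups of 2 and 3 arrays were not examined in this way.

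The window changes differed between late and early times, by a test of the difference itself. In the short course the differences of 30-72 h from 4-8 h were 1.17 and 1.28 for the Otc probe sets, -0.84 for Ass1, and -1.54 and -1.21 for the Asl probe sets. In the long course those of 72-168 h from 6-18 h were 0.51 for Otc, -1.05 and -1.14 for Asl and 0.38 for Arg1.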

How the results depend on the processing

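Of 65 results of the enzymes past the threshold, 698 of 782 values under other settings and 2808 of 2923 with 1 array left out kept direction and call. For a single time most of the arrays left out belong to other times, so that the change stays the same by design. Leaving out long-course control replicate 2 ended 20 calls, and leaving out short-course control replicate 4 ended 9. One value changed sign, Otc at 24-48 h, which was -0.048 (adjusted p = 0.999) on the 15 high spike-in arrays alone, with 1 control, a subset chosen after seeing the data. On that subset, which has few arrays, the counts of calls were 0 at any time (6 with all arrays), 0 over single times (24), 0 over windows (10), 2 in the related list (28) and 0 late against early (4). In the short course the single times gave 5 calls, against 2 without a filter, 10 with array weights, 3 without the 9 arrays of low correlation and 0 with the replicate number as a block. The short-course windows gave 4 calls, against 2 without those arrays and 0 with the replicate block, and the related list 14, against 4 without them. The replicate block left the late-against-early calls of the short course at 5. In the short course only the controls had a replicate 4, so the replicate block set that 1 control apart. With the block Ass1 changed by 0.79, 0.78 and 0.89 at 5.5, 6 and 7 h, the same values as without control replicate 4. Why the other counts moved was not tested, apart from the fewer arrays of the subsets. With 1 array left out the short course gave 7 to 7 calls at any time, 0 to 16 over single times, 0 to 10 over windows, 10 to 19 in the related list and 5 to 5 late against early. The long course gave 5 to 6, 12 to 30, 4 to 13, 25 to 29 and 3 to 4. The arrays that moved a count by over 1.5 times were the short-course controls 1 (3 single times, 2 windows), 2 (16 and 10), 3 (3 and 1) and 4 (0 and 0), 5.5 h replicates 1 and 2, 6 h replicate 3 and 7 h replicate 2 (3 single times each), and long-course control 2 (12 and 4). Values past the threshold in neither setting changed sign 93 times under other settings and 95 times with an array left out. Over all probe sets the split of higher against lower calls at 4-8 h of the short course was 1005 to 645 as deposited, 796 to 743 after quantile normalization and 662 to 883 after median centring, where the median change of all probe sets was 0.10, 0.03 and -0.02, and at 1-2 h it was 442 to 303, 358 to 381 and 339 to 415. The number of arrays, 2 to 4 a time, limits the precision, and the dim Cps1 probe set of the short course, with a mean signal of 8.912, could not be read.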
